A study of Rattus norvegicus with 18 samples.

Results

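The genes that make and remodel fatty acids were followed in cultured rat bone marrow MSCs. The set holds the regulator Srebf1 and 9 enzymes, namely Acly, Acss2, Me1, Acaca, Fasn, Elovl5, Elovl6, Fads1 and Fads2. These are 10 of the 32623 genes in each deposited table. They were picked by gene name, each name stood on 1 row, and all 10 passed the filter on low values (FPKM of at least 1 in at least 3 libraries). FPKM is the read count of a gene scaled to transcript length and to the library total, so it can be compared between genes.

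MSCs came from the bone marrow of SD rats that were 2 months old, either wild type (WT) or miR-337-/- (KO), a knockout that all cells of the animal carry. At passage 3 the cells of both genotypes were starved of serum for 8 h. They were then kept in serum starvation (SSt), given fetal bovine serum (FBS), or put under 10% cyclic mechanical stretch (CMS), for 24 h by the sample labels. There were 3 libraries in each of the 6 groups of genotype and treatment. The sources used here do not say whether these came from separate rats or cultures, so p-values measure the spread between these libraries.

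Each library held 56.08 M to 71.85 M counted reads. The primary transcript row of miR-337 had a count of 0 in all 18 libraries, WT included, so it gives no check of the knockout. The MSC markers Col1a1 and Thy1 averaged 1485 and 435 FPKM over all libraries, while Lepr reached at most 0.07 FPKM in any library. Transcripts of macrophages were present, with Lyz2, the lysozyme of myeloid cells, at a mean of 3314 FPKM. The adipocyte genes Adipoq, Lep, Plin1 and Cidec reached at most 0.125 FPKM in any library. Other adipocyte markers were present, with Fabp4 and Lpl at means of 293 and 48.9 FPKM over all libraries. KO FBS replicate 1 stood apart from its group. Its summed FPKM over the 10 genes was 358, against 438 and 461 in the other KO FBS libraries, and calls of the 10 genes that change without it are named beside the result. Its counts gave a mean chi-square per gene of 115 and 147 against the other KO FBS libraries, which gave 28.0 between them. KO CMS replicate 1 also stood apart, though less, at 55.8 and 68.1 against 24.9.

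Fatty acid synthesis starts from acetyl-CoA in the cytosol, which ATP citrate lyase (Acly) cuts from citrate and acetyl-CoA synthetase (Acss2) makes from acetate. Acetyl-CoA carboxylase (Acaca) turns it into malonyl-CoA, and fatty acid synthase (Fasn) builds palmitate from both, with NADPH that malic enzyme (Me1) and other enzymes supply. Elongases of the Elovl family lengthen fatty acids, and the delta-5 and delta-6 desaturases Fads1 and Fads2 put double bonds into polyunsaturated ones. SREBP-1, the product of Srebf1, is released from a membrane precursor by proteolysis and then activates the transcription of lipogenic enzymes, often together with the factors NF-Y and Sp1.

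RefSeq promoter windows, from 250 bases before to 50 bases after the annotated start in build GRCr8, were at hand for 7 of the 10 genes and numbered 8, since Srebf1 had a pair of start sites. Fasn, Acaca and Elovl6 had no window there. The 5 windows below belong to the gene with the largest change (Acss2), to the gene whose pattern differed most from the others (Me1), and to the elongase and the desaturases (Elovl5, Fads1 and Fads2). Capitals mark letter matches, on either strand, to the NF-Y box CCAAT, the GC box GGGCGG bound by Sp1-like factors, the E-box CACGTG and the SREBP element TCACNCCAC.
Acss2 (chr3:164464453-164464752, plus strand): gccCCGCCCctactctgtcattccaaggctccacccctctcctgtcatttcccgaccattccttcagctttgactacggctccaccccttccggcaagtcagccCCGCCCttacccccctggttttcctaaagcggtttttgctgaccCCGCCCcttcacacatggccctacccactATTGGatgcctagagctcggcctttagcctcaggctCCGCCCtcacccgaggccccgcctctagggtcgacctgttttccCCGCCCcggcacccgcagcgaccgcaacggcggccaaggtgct
Me1 (chr8:96540195-96540494, minus strand): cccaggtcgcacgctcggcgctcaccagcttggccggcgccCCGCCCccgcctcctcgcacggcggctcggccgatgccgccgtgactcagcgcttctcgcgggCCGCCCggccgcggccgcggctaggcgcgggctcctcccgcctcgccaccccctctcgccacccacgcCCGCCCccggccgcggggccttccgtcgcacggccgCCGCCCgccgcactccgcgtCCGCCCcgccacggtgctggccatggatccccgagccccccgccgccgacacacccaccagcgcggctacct
Elovl5 (chr8:87670914-87671213, plus strand): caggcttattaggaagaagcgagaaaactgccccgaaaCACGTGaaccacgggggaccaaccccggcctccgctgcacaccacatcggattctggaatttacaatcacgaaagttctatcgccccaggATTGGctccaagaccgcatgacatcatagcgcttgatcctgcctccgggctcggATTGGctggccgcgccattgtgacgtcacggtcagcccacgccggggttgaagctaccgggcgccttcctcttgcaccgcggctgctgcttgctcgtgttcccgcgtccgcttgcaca
Fads1 (chr1:216252442-216252741, plus strand): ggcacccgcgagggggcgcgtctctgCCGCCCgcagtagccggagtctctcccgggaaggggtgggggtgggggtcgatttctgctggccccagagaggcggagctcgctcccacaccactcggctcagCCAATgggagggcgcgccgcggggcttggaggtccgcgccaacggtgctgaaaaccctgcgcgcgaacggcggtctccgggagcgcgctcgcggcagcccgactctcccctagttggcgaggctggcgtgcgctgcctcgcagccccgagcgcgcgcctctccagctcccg
Fads2 (chr1:216171984-216172283, minus strand): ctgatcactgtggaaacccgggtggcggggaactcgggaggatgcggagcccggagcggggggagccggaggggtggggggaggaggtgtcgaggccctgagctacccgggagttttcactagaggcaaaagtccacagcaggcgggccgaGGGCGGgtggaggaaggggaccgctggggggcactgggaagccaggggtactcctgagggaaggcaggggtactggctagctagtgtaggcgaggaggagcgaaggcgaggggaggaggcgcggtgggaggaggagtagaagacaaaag

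An NF-Y box stood in 6 of the 8 windows, against 37.5% of 33469 windows of the same length over all genes. A GC box stood in 7 of the 8, against 33.1% of all windows. Srebf1 is counted with both of its windows. The share of G and C letters ran from 60.3% (Elovl5) to 81.7% (Me1), and the windows over all genes were not matched for it. The Acss2 window held 5 GC boxes and 1 NF-Y box, whereas the Me1 window held 5 GC boxes and no NF-Y box. Elovl5 alone among the 8 had no GC box, and it alone had an E-box, 212 bases before the start, which 6.42% of all windows had. The SREBP element as spelled here was in none of the 8 windows and in 1.12% of all windows, which says only that these letters are not in these stretches. No match overlapped another in the 8 windows, and a match of letters is not evidence of binding.

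**Figure D1:**
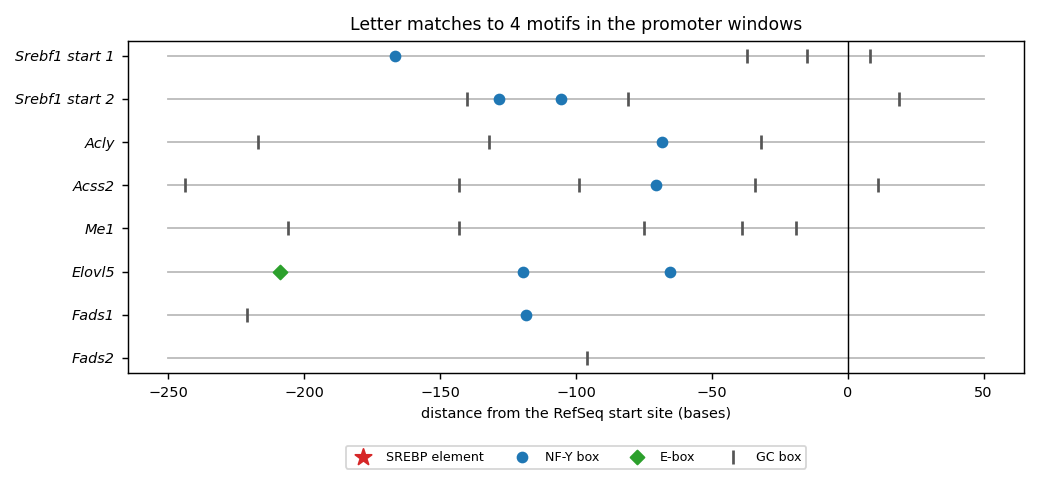
Letter matches to the 4 motifs in the 8 RefSeq promoter windows, by distance from the start site in bases (negative values lie before it). GC boxes were in every window but that of Elovl5, and NF-Y boxes in every window but those of Me1 and Fads2.

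Against serum starvation, 9 of the 10 genes rose with FBS in WT cells and 1 fell, and all 10 rose with CMS. A gene is said to have risen or fallen where its adjusted p in the edgeR quasi-likelihood test was under 0.05, whatever the fold. Over all 12916 genes tested in WT, 33.7% rose and 32.7% fell with FBS, and 34.6% rose and 32.3% fell with CMS. With a fold of at least 2 as well, 4 of the 10 passed under each treatment (Acss2, Elovl6, Fads1 and Fads2), while 8.95% of all genes did so upward with FBS and 8.66% with CMS. The median log2 fold change of the 10 was 0.85 with FBS and 0.87 with CMS, beside 0.01 and 0.02 over all genes tested.

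In KO cells 9 of the 10 rose with FBS and 9 with CMS. Elovl5 was the gene that missed the test in both. Among 12888 genes tested in KO, 30.3% rose and 29.5% fell with FBS, and 30.8% rose and 30.7% fell with CMS. The 2-fold limit was passed by 5 genes under each treatment, the same 4 as in WT and Acly, beside 9.47% of all genes upward with FBS and 9.56% with CMS. The median log2 fold change of the 10 was 0.80 with FBS and 1.05 with CMS, beside 0.02 and -0.0016 over all genes. Without KO FBS replicate 1, all 10 genes rose with FBS. The edgeR folds with FBS in KO were then 10.7 for Acss2, 3.12 for Elovl6, 2.42 for Fads1, 3.26 for Fads2 and 1.36 for Fasn. With limma on FPKM and no library left out, 7 of the 10 rose with FBS. Acaca (log2 0.17, limma adjusted p = 0.0758) and Me1 (0.11, limma adjusted p = 0.133) also missed the test there. The shares of all genes in these changed settings are not given here, so these counts describe the 10 genes only. The WT and KO comparisons with SSt share their SSt libraries between FBS and CMS, so the values of the treatments are given side by side and are not independent.

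**Figure D2:**
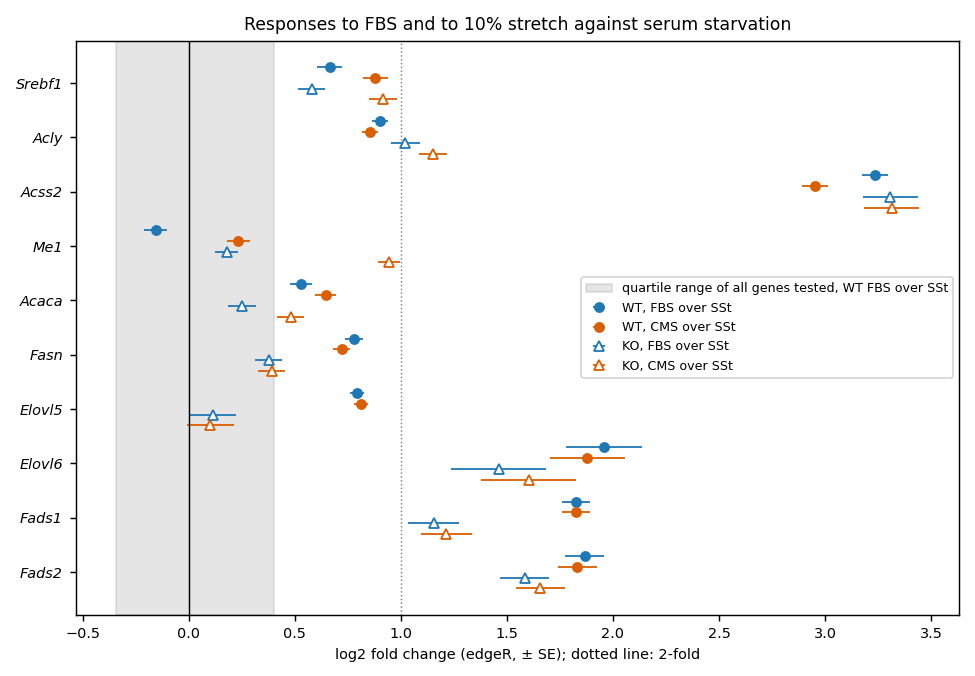
Log2 fold change of each gene against serum starvation, with its SE, for FBS (blue) and CMS (orange) in WT (circles) and KO (open triangles). The grey band spans the lower to the upper quartile of all genes tested in WT FBS over SSt, from -0.34 to 0.40, and Acss2 lies near 3 in all 4 comparisons.

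Srebf1, the regulator, was at 14.1, 13.2 and 14.5 FPKM in the WT SSt libraries. It stood at 23.7, 21.8 and 22.5 FPKM with FBS and at 24.2, 28.0 and 26.0 FPKM with CMS. Both treatments lay above SSt without overlap. The rise was 1.58-fold with FBS (log2 fold change 0.66 ± 0.06 SE, edgeR adjusted p = 4.14e-06) and 1.84-fold with CMS (0.88 ± 0.06, adjusted p = 5.13e-07). In KO cells the means were 13.2 ± 0.820 FPKM in SSt, 19.0 ± 0.543 with FBS and 23.1 ± 0.982 with CMS (SD, n = 3). CMS libraries lay above FBS libraries in both genotypes, as they did for 12.2% of all genes in WT and 10.6% in KO. The Srebf1 difference passed the test in KO (1.26-fold, edgeR adjusted p = 0.0107) and narrowly missed it in WT (1.16-fold, adjusted p = 0.0506).

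Acss2, which activates acetate, had the largest change of the set. Its level was 6.44, 6.21 and 6.77 FPKM in WT SSt, then 60.4, 64.2 and 62.7 with FBS and 49.0, 55.5 and 48.5 with CMS. The KO libraries held 5.68, 5.49 and 6.45 FPKM in SSt, 45.5, 58.7 and 63.5 with FBS, and 61.0, 52.4 and 49.2 with CMS. In both genotypes every treated library lay far above every starved one, and KO FBS replicate 1 was the lowest treated library. The rise with FBS was 9.41-fold in WT (log2 3.23 ± 0.06, edgeR adjusted p = 1.24e-10) and 9.89-fold in KO (3.31 ± 0.13, adjusted p = 3.10e-07). With CMS it was 7.74-fold in WT and 9.95-fold in KO. In WT, 1.89% of all genes tested had a larger absolute change with FBS. Acss2 was also lower with CMS than with FBS in WT (log2 -0.28 ± 0.06, edgeR adjusted p = 0.0155). That call was lost without WT CMS replicate 3 (adjusted p = 0.0585) or without WT FBS replicate 2 (adjusted p = 0.0504).

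Acly, which supplies acetyl-CoA from citrate, was the most abundant of the 10, with a mean of 101 FPKM over all libraries. In WT it went from 63.7 ± 2.51 FPKM in SSt to 122 ± 2.20 with FBS and 117 ± 4.53 with CMS (SD, n = 3). The KO means were 61.1 ± 1.04, 119 ± 13.3 and 126 ± 5.68 FPKM. The starved and treated libraries did not overlap in either genotype. Rises were 1.87-fold and 1.81-fold in WT, and 2.03-fold and 2.22-fold in KO, with FBS and CMS respectively.

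Me1, the malic enzyme that yields NADPH, moved differently from the other genes. In WT it was at 32.1, 29.1 and 31.8 FPKM in SSt, 28.7, 28.5 and 28.4 with FBS, and 34.5, 39.5 and 37.4 with CMS. All FBS libraries lay below, and all CMS libraries above, the starved ones, though the gaps were small. The fall with FBS was log2 -0.16 ± 0.05 (edgeR adjusted p = 0.0268). It missed the test when any one of WT FBS replicates 1 to 3 or WT SSt replicates 1 and 3 was left out (edgeR adjusted p between 0.0532 and 0.0809), and with limma on log2(FPKM + 1) (-0.12, adjusted p = 0.112). The rise with CMS was 1.18-fold (log2 0.23 ± 0.05, edgeR adjusted p = 0.00320).

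In KO, Me1 held 25.9, 27.1 and 27.7 FPKM in SSt and 28.3, 31.3 and 28.0 with FBS, against 47.0, 47.3 and 49.4 with CMS. The KO CMS libraries were above every other library of the study. The rise over SSt was 1.92-fold with CMS (log2 0.94 ± 0.05, edgeR adjusted p = 1.24e-06) and 1.13-fold with FBS (adjusted p = 0.0177). The latter did not pass without KO FBS replicate 2 or KO SSt replicate 1 or 2, with adjusted p between 0.0511 and 0.0680. CMS exceeded FBS in both genotypes, by 1.31-fold in WT (edgeR adjusted p = 0.00286) and 1.70-fold in KO (adjusted p = 2.08e-04).

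Acaca and Fasn, the committed step and the synthase, rose by less than 2-fold in all 4 comparisons with SSt. Fasn was at 36.4, 34.9 and 35.9 FPKM in WT SSt, 65.4, 62.2 and 60.9 with FBS, and 59.5, 63.3 and 57.0 with CMS. The KO libraries held 39.3, 39.4 and 39.4 FPKM in SSt, 43.4, 50.4 and 53.6 with FBS, and 48.7, 49.6 and 45.4 with CMS. All KO libraries with FBS or CMS lay between the WT starved and the WT treated libraries. The rise with FBS was 1.72-fold in WT (log2 0.78 ± 0.04, edgeR adjusted p = 1.02e-07) and 1.30-fold in KO (0.38 ± 0.06, adjusted p = 9.00e-04). With CMS it was 1.65-fold and 1.31-fold.

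Acaca had WT means of 9.52 ± 0.519 FPKM in SSt, 14.1 ± 0.540 with FBS and 15.2 ± 0.629 with CMS, and KO means of 9.95 ± 0.377, 11.4 ± 1.12 and 12.9 ± 0.543 (SD, n = 3). KO FBS replicate 1, at 10.1 FPKM, lay within the range of the starved KO libraries. Rises were 1.44-fold and 1.56-fold in WT and 1.19-fold and 1.40-fold in KO, with FBS and CMS. Acaca was 1.17-fold higher with CMS than with FBS in KO at an edgeR adjusted p of 0.0480, a call lost when any one of the KO CMS libraries or of KO FBS replicates 1 and 2 was left out (adjusted p between 0.0659 and 0.143).

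**Figure D3:**
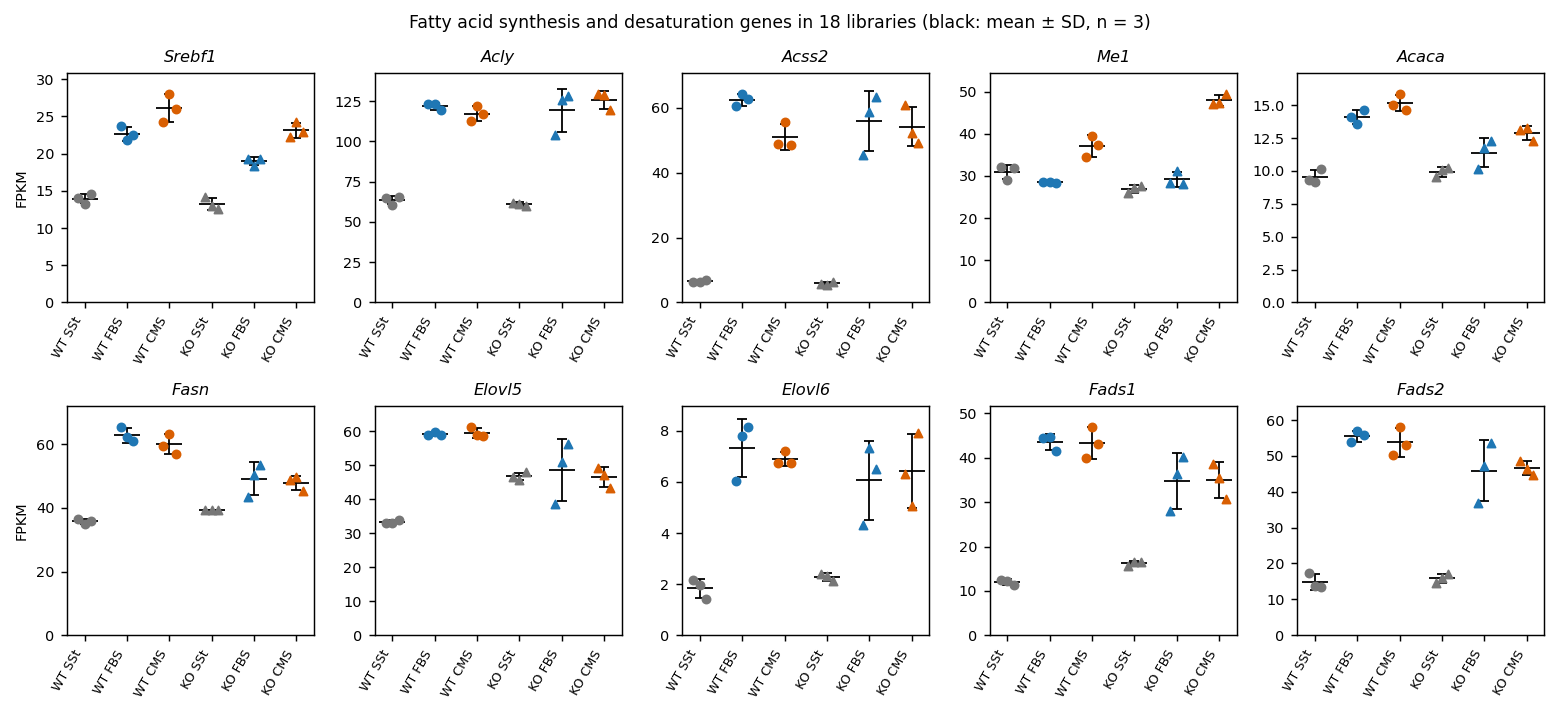
FPKM of the 10 genes in every library, by group, with y axes from 0 (circles WT, triangles KO; grey SSt, blue FBS, orange CMS; black, mean ± SD of 3 libraries). Elovl5 is the gene whose KO libraries overlap between SSt, FBS and CMS, and Me1 is highest in KO CMS.

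Elovl5, which lengthens polyunsaturated fatty acids, rose in WT and missed the test in KO. It was at 32.9, 33.0 and 34.0 FPKM in WT SSt, 58.9, 59.9 and 58.8 with FBS, and 61.3, 58.9 and 58.6 with CMS. The KO libraries held 46.5, 45.8 and 47.9 FPKM in SSt, 38.7, 50.9 and 56.3 with FBS, and 49.1, 47.1 and 43.4 with CMS. KO starved cells thus lay above all WT starved libraries and below all WT treated ones, and the 3 KO groups overlapped. Starved KO libraries lay wholly above the starved WT ones for 39.3% of all genes. The WT rises were 1.73-fold with FBS (log2 0.79 ± 0.03, edgeR adjusted p = 1.71e-08) and 1.76-fold with CMS (0.81 ± 0.03, adjusted p = 1.38e-08). In KO the log2 differences were 0.11 ± 0.11 with FBS (edgeR adjusted p = 0.406) and 0.10 ± 0.11 with CMS (adjusted p = 0.448). Without KO FBS replicate 1 the KO difference with FBS was 0.24 ± 0.07 and passed (edgeR adjusted p = 0.0151).

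Elovl6, the elongase that takes palmitate to stearate, was the least abundant of the 10. Its WT libraries held 2.14, 1.96 and 1.41 FPKM in SSt, 6.05, 7.81 and 8.16 with FBS, and 6.75, 7.21 and 6.75 with CMS. KO means were 2.28 ± 0.143 FPKM in SSt, 6.06 ± 1.55 with FBS and 6.43 ± 1.45 with CMS (SD, n = 3). No treated library overlapped the starved ones. Rises with FBS were 3.88-fold in WT (log2 1.96 ± 0.18, edgeR adjusted p = 5.05e-06) and 2.75-fold in KO (1.46 ± 0.22, adjusted p = 5.14e-04). Those with CMS were 3.68-fold and 3.04-fold.

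The desaturase Fads1 was at 12.4, 12.3 and 11.2 FPKM in WT SSt, 44.5, 44.7 and 41.5 with FBS, and 39.9, 47.0 and 43.1 with CMS. In KO it was at 15.7, 16.6 and 16.5 FPKM in SSt, 27.9, 36.3 and 40.1 with FBS, and 38.7, 35.5 and 30.7 with CMS. By group means, KO was higher than WT in SSt and lower with FBS and with CMS. With FBS Fads1 rose 3.55-fold in WT (log2 1.83 ± 0.07, edgeR adjusted p = 5.76e-09) and 2.23-fold in KO (1.15 ± 0.12, adjusted p = 5.05e-05). With CMS it rose 3.55-fold and 2.32-fold.

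Fads2, whose RefSeq window lies on the same chromosome as that of Fads1 and on the opposite strand, had WT means of 14.8 ± 2.12 FPKM in SSt, 55.4 ± 1.57 with FBS and 53.8 ± 3.95 with CMS. KO means were 15.9 ± 1.23, 45.9 ± 8.46 and 46.6 ± 2.02 FPKM (SD, n = 3). Starved levels of the genotypes overlapped for Fads2, unlike those of Fads1. Rises were 3.65-fold and 3.56-fold in WT and 3.00-fold and 3.16-fold in KO, with FBS and CMS.

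Most genes of the set missed the test between stretch and serum. Between CMS and FBS in WT, 1 of the 10 genes was higher (Me1) and 1 was lower (Acss2), where 3.91% of all genes were higher and 5.03% lower. In KO, 3 were higher with CMS (Srebf1, Acaca and Me1), beside 6.73% of all genes, and none was lower, beside 8.09%. For the 8 others in WT the log2 differences ran from -0.08 (Elovl6, SE 0.17) to 0.22 (Srebf1, SE 0.06), and a difference that misses the test does not show equal levels.

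The response to FBS differed between genotypes for 5 of the 10 genes by the interaction term of the edgeR fit over all 18 libraries. It was smaller in KO for 4, namely Elovl5 (log2 difference -0.67 ± 0.12, adjusted p = 5.41e-04), Fads1 (-0.66 ± 0.14, adjusted p = 0.00244), Fasn (-0.39 ± 0.08, adjusted p = 0.00135) and Acaca (-0.27 ± 0.08, adjusted p = 0.0207). It was more positive in KO for Me1 (0.35 ± 0.08, edgeR adjusted p = 0.00279). Over all 13317 genes tested in both genotypes, 18.5% had a more positive and 17.2% a more negative response in KO. Without KO FBS replicate 1 these 5 genes kept their calls and Acly passed as well, at 0.20 ± 0.06. The call for Acaca was lost without WT FBS replicate 3, WT SSt replicate 1 or 2, or KO SSt replicate 3 (edgeR adjusted p between 0.0505 and 0.0535).

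The response to CMS differed for 6 of the 10. It was smaller in KO for Elovl5 (log2 difference -0.71 ± 0.12, edgeR adjusted p = 1.95e-04), Fads1 (-0.61 ± 0.14, adjusted p = 0.00286) and Fasn (-0.32 ± 0.08, adjusted p = 0.00331). It was larger in KO for Me1 (0.71 ± 0.08, edgeR adjusted p = 4.55e-06), Acly (0.30 ± 0.08, adjusted p = 0.00514) and Acss2 (0.37 ± 0.14, adjusted p = 0.0469). All genes gave 21.6% with a more positive and 23.2% with a more negative response in KO. The Acss2 difference did not pass without either of WT CMS replicates 1 and 3, KO CMS replicates 1 and 2, KO SSt replicates 1 and 2, or any one WT SSt library (edgeR adjusted p between 0.0528 and 0.115). On FPKM values tested with limma, where the median of all genes shifted to -0.16, the differences of Acly and Acss2 were 0.16 and 0.20 and missed the test. The differences for FBS and for CMS share the SSt libraries of both genotypes.

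**Figure D4:**
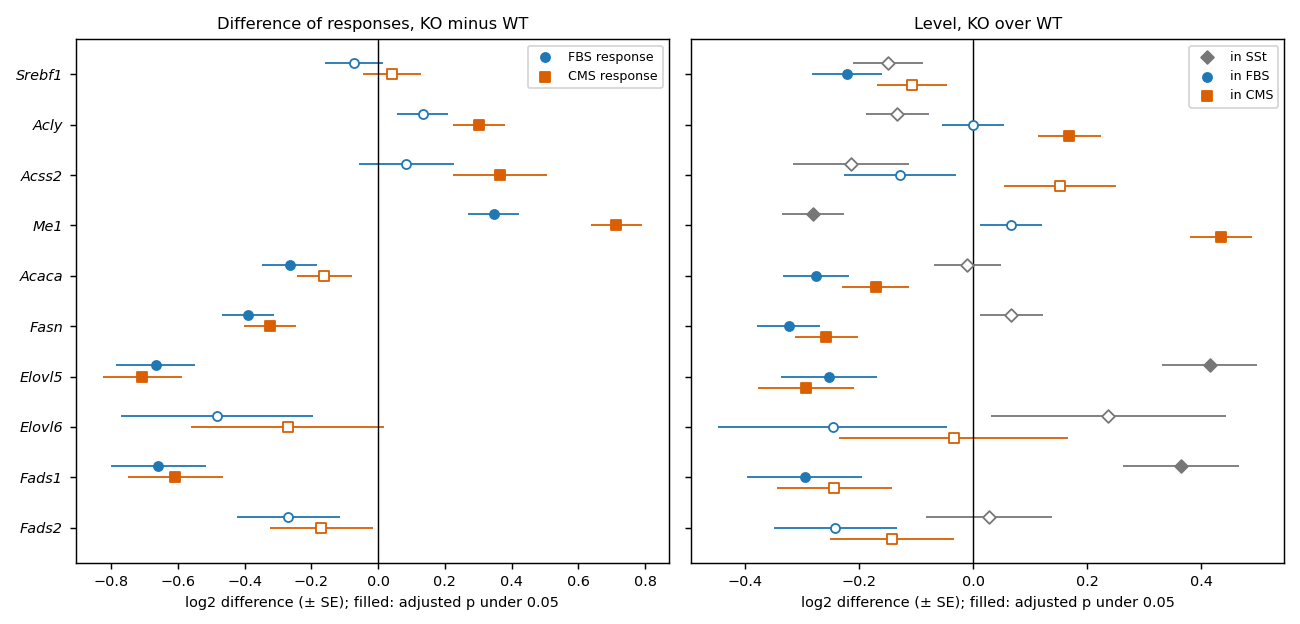
Left, the difference of the FBS and CMS responses between genotypes (log2, KO minus WT) for each gene; right, the log2 ratio of KO over WT within each treatment. Bars are SE and filled symbols passed an adjusted p of 0.05; Elovl5 and Fads1 were higher in starved KO cells and their responses were smaller in KO.

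Set beside each other within a treatment, starved KO cells had more Elovl5 (1.33-fold, edgeR adjusted p = 8.92e-04) and Fads1 (1.29-fold, adjusted p = 0.00851) and less Me1 (log2 -0.28 ± 0.05, adjusted p = 6.43e-04) than starved WT cells. Of all genes, 24.2% were higher and 23.2% lower. The WT and KO libraries were deposited apart, each genotype in its own table. A difference in level between the genotypes thus cannot be told apart from one between the tables or their cultures. In the difference of responses a constant offset between them cancels, but an offset that varied between treatments would not. With FBS 5 of the 10 were lower in KO, where 12.3% of all genes were lower. These were Srebf1, Fasn, Acaca, Elovl5 and Fads1, with log2 differences from -0.32 (Fasn) to -0.22 (Srebf1). Without KO FBS replicate 1 there were 3, since Elovl5 (-0.13, edgeR adjusted p = 0.0916) and Fads1 (-0.18, adjusted p = 0.168) no longer passed. Elovl5 and Fads1 also missed the test without KO FBS replicate 2 (edgeR adjusted p = 0.0510 and 0.0646) or any one of the WT FBS libraries (adjusted p between 0.0580 and 0.112). Srebf1 did so without WT FBS replicate 1 (edgeR adjusted p = 0.0676) or KO FBS replicate 2 (adjusted p = 0.0606). Fasn and Acaca passed whichever library of these groups was left out.

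With CMS, Me1 (1.35-fold, edgeR adjusted p = 1.92e-05) and Acly (1.12-fold, adjusted p = 0.0233) were higher in KO, beside 18.7% of all genes. Fasn (log2 -0.26 ± 0.06), Acaca (-0.17 ± 0.06) and Elovl5 (-0.29 ± 0.08) were lower, beside 21.0% of all genes. Me1 and Fasn passed whichever library of these groups was left out. Acly was at 0.12 with upper quartile scaling (edgeR adjusted p = 0.134) and at 0.10 with limma on log2(FPKM + 1) (adjusted p = 0.246). It also missed the test without WT CMS replicate 1 or 3 or KO CMS replicate 1 or 2 (edgeR adjusted p between 0.0558 and 0.0923). Acaca did so without WT CMS replicate 1 or 2 or KO CMS replicate 3 (edgeR adjusted p between 0.0556 and 0.122), and Elovl5 without KO CMS replicate 3 (adjusted p = 0.0592).

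Macrophage markers did not move as one. The summed FPKM of 9 macrophage markers ran from 3316 to 3468 in WT SSt, 5826 to 6172 in WT FBS and 5625 to 5936 in WT CMS. In KO it ran from 1930 to 2038 in SSt, 3609 to 4525 in FBS and 3744 to 4040 in CMS. Lyz2 made up 67.4% to 83.7% of the sum by group means. Without Lyz2 the summed group means were 1111 FPKM in WT SSt, 1048 in WT FBS and 946 in WT CMS, so that the starved WT cells were no longer lowest. In KO they were 467, 986 and 913 FPKM in the same order. Of 8 such genes tested in WT FBS over SSt, 4 rose and 2 fell, with Lyz2 at log2 1.08 ± 0.04 and Cd14 at log2 -1.43 ± 0.07. With CMS, 4 rose and 4 fell in WT, among them Adgre1 at log2 -1.33 ± 0.12, a gene picked after its values were seen. In KO 7 of 8 rose with FBS and none fell, and 5 rose and 2 fell with CMS. Between the genotypes, 7 of 8 were lower in KO in SSt and 4 with FBS, with none higher, and with CMS 4 were lower and 1 was higher (Adgre1, log2 1.75 ± 0.39). Of 9 MSC markers tested in WT FBS over SSt, 5 rose and 4 fell. The 8 adipocyte markers in the tables summed to 20.2 to 27.0 FPKM in WT SSt and 676 to 768 in WT FBS. In KO FBS they summed to 55.2, 272 and 312. All 3 adipocyte markers tested in WT rose with FBS, namely Fabp4 (log2 4.98 ± 0.13), Lpl (4.66 ± 0.13) and Pparg (2.01 ± 0.22), and all 3 rose with CMS. With CMS all 3 were lower in KO than in WT, Pparg by log2 -2.13 ± 0.41. Adipoq, Lep, Plin1 and Cidec, of the same list, were near 0. None of the 3 endothelial markers in the tables could be tested, and they summed to at most 2.23 FPKM. In bulk RNA, fewer cells of a type and less RNA per cell cannot be told apart, and the part of these transcripts in the results above was not tested.

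Sterol synthesis, the other branch that SREBP proteins serve, rose as a block. All 18 of its genes rose with FBS and with CMS in both genotypes, and with FBS in WT the median log2 fold change was 1.68, beside 0.85 for the 10 fatty acid genes. Dhcr7, the last reductase of cholesterol synthesis, rose by log2 3.00 ± 0.06 in WT and 2.08 ± 0.14 in KO, and Mvd by 2.41 ± 0.08 and 2.24 ± 0.12. Msmo1, the most abundant of the list, rose by 1.73 ± 0.04 in WT and 1.47 ± 0.07 in KO.

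Of the 11 tested genes for SREBP processing and lipogenic regulation, 8 rose and 2 fell with FBS in WT, and 7 rose and 1 fell in KO. Insig1, which holds the SREBP precursor in the endoplasmic reticulum and is itself an SREBP target, rose by log2 1.70 ± 0.07 in WT and 2.20 ± 0.06 in KO. Mbtps1, the protease that cuts the precursor, rose by 0.29 ± 0.03 and 0.24 ± 0.04. Of 7 genes for citrate, acetyl-CoA and NADPH supply, 4 rose and 3 fell in WT, and 6 rose and 1 fell in KO. Idh1, a cytosolic NADPH source, rose by 1.71 ± 0.04 and 2.33 ± 0.08.

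Other elongation and desaturation genes were split. Of 14 tested, 8 rose and 4 fell with FBS in WT, and 7 rose and 3 fell in KO. The stearoyl-CoA desaturases Scd and Scd2 rose by log2 3.17 ± 0.08 and 1.71 ± 0.05 in WT, and by 2.95 ± 0.14 and 1.42 ± 0.06 in KO. How reads shared by these similar genes were counted is not given in the sources used here. Cyb5a, the cytochrome that passes electrons to desaturases, rose by 1.13 ± 0.04 and 0.87 ± 0.05. Of 14 genes for acyl-CoA activation and glycerolipid synthesis, 4 rose and 10 fell with FBS in WT, and 2 rose and 8 fell in KO. With CMS 3 rose and 9 fell in WT, and 6 rose and 6 fell in KO. Without KO FBS replicate 1 the KO counts with FBS were 6 up and 1 down for the SREBP list, 6 and 1 for the supply list, 6 and 3 for elongation and desaturation, 2 and 7 for glycerolipid synthesis, 18 and 0 for sterol synthesis, and 8 and 0 for the macrophage markers. Lpin1 rose by 2.04 ± 0.06 in WT while Lpin2, a phosphatidate phosphatase of the same family, fell by 1.19 on the log2 scale. The most abundant of that list, Acsl5 and Agpat1, changed by 0.23 ± 0.04 and -0.38 ± 0.03 in WT.

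**Figure D5:**
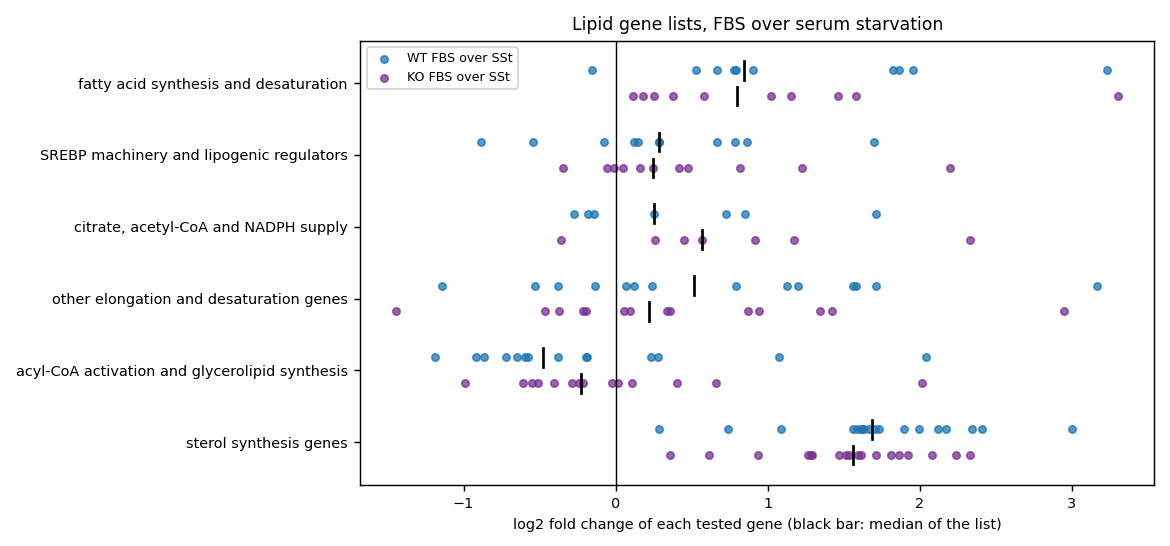
Log2 fold change with FBS over SSt of every tested gene in 6 lipid gene lists, in WT (blue) and KO (purple), with the list median as a black bar. All points of the sterol list lie above 0, and 10 of the 14 WT points of the glycerolipid list lie below it.

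Across the 6 group means of log2(FPKM + 1), Pearson's r between pairs of the 10 genes had a median of 0.91 over 45 pairs. It ran from 0.05 (Me1 with Elovl5) to 0.998, and the 9 pairs with Me1 reached at most 0.59. The genes outside the set that followed its mean standardised profile most closely were Ech1 (r = 0.999), Ccdc115 (0.998), Tsc2, Pcsk1n and Sesn1 (0.997 each). With 6 points a high r is common, and 11.0% of 13307 genes had an r over 0.9, so these values only describe the likeness.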

How the data were processed

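RNA-seq of 18 libraries was used, 3 in each of 6 groups of genotype and treatment. The authors deposited 1 table per genotype, holding the count of reads per gene as unscaled whole numbers and, beside it, the FPKM that the authors derived from it by transcript length and library total. Bowtie 0.12.2 and mm10 stand in the submitters' processing notes. As mm10 is a mouse build and the identifiers are those of rat, positions in the tables were not used. The sample labels give 24 h of treatment, while the study's methods text gives a shorter time.

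Counts were tested with edgeR 4.0.16 (TMM scaling, quasi-likelihood F test) in R 4.3.3. The filter was an FPKM of 1 or more in 3 or more libraries, and adjusted p-values follow Benjamini and Hochberg over all genes tested. A fit per genotype held its 3 groups, and KO was compared with WT in a fit of all 18 libraries with an interaction term. The standard error was derived from the F statistic. The fit was tested on simulated data. Alternatives used DESeq2 1.42.0, limma 3.58.1 on log2(FPKM + 1) or log2(FPKM + 0.1), other scalings and filters, a replicate block and the omission of each library. Depth was 56.08 M to 71.85 M counts per library.

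The 10 genes, the other gene lists, the markers and the motifs were chosen with earlier results of these data known. Of each other list the text names the 2 most abundant tested genes and the 2 with the largest change among those past the test and a 2-fold limit in WT FBS over SSt, and for likeness the 5 genes with the highest r. Some genes that this rule names are not reported here. Promoter windows of 300 bases came from RefSeq (GRCr8). No protein sequences were used here.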

Additional observations from a re-analysis of the deposited data

Results flagged for a closer look

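The groups hold 3 libraries each, too few to test single libraries for standing apart. The results below were taken up because the response to a treatment differed between WT and KO by the interaction test (edgeR, adjusted over all 13317 genes). For FBS over SSt, the log2 difference, KO minus WT, was -0.39 for Fasn, -0.27 for Acaca, 0.35 for Me1, -0.67 for Elovl5 and -0.66 for Fads1. For CMS over SSt it was -0.32 for Fasn, 0.30 for Acly, 0.37 for Acss2, 0.71 for Me1, -0.71 for Elovl5 and -0.61 for Fads1. Such differences were common over all genes. For FBS, 18.5% of them passed as more positive and 17.2% as more negative in KO, and for CMS 21.6% and 23.2%. Me1, Elovl5, Fads1 and Fasn differed for both treatments, which share the SSt libraries. No cause of these differences was tested.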

How the results depend on the processing

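With no fold limit, the number of the 10 genes past the adjusted p was 10 for WT FBS over SSt, 10 for WT CMS over SSt, 2 for WT CMS over FBS, 9 for KO FBS over SSt, 9 for KO CMS over SSt and 3 for KO CMS over FBS. It was 5 and 6 for the FBS and CMS responses, KO minus WT, and 3, 5 and 5 for KO over WT in SSt, FBS and CMS. With the 2-fold limit the counts were 4, 4, 0, 5, 5 and 0 in the same order and 0 for the other comparisons, and they stayed within 1.5 times of these under every other alternative run. The lowest was 4 for KO FBS over SSt. Past the adjusted p alone, KO FBS over SSt gave 7 with limma at either pseudocount and 8 with no filter, instead of 9. Both SSt groups held the lowest means for 8 of the 10 genes in FPKM and 9 in TMM-scaled CPM.

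Of 69 single values followed, 53 kept their direction and side of the threshold under all alternatives. The KO difference of Elovl5 with CMS, which missed the test, turned from 0.10 to -0.0093 and -0.0095 with limma on FPKM at the larger and smaller pseudocount, where the median of all genes was -0.09 and -0.11. Among values that missed the test, 52 of 690 recomputed ones changed sign, and none of those passed. With the compared groups fitted alone, KO over WT passed for 6 genes in SSt instead of 3, and for 2 in FBS instead of 5. Leaving out 1 library gave 1 to 3 for WT CMS over FBS, 3 to 5 for KO over WT in SSt, 2 to 6 in FBS and 3 to 5 in CMS. The shares of all genes that passed under these alternatives are not given here.

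Same-numbered libraries did not deviate together. Of 18 pairs, 1 had a correlation of deviations over 0.1, and the range was -0.24 to 0.17. With the replicate number as a block, 5 genes passed for the CMS response instead of 6, 4 for KO over WT in FBS instead of 5 and 2 for KO CMS over FBS instead of 3. The other counts were equal, with 10 for WT FBS over SSt.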
